A study of Mus musculus with 26 samples.

Results

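The genes examined here encode the enzymes that write, maintain and remove 5-methylcytosine, together with 3 of their closest cofactors. They were taken by symbol from the gene expression table of wild-type (WT) and ZFP57 knockout (KO) mouse ES cells, and number 10 of the 24409 genes listed there: *Dnmt1*, *Uhrf1*, *Dnmt3a*, *Dnmt3b*, *Dnmt3l*, *Tet1*, *Tet2*, *Tet3*, *Tdg* and *Dppa3*. All 10 were detected in every library. ES cells are pluripotent cells grown from the inner cell mass. The lines were male, on the C57BL/6J background, and came from embryos collected at E2.5, held for 2 days in KSOM, and then grown in N2B27 medium. Both genotypes received 2i throughout, that is PD0325901 against the Erk pathway and CHIR99021 against Gsk3, with LIF added once the inner cell mass was plated, and passage number was matched up to a maximum of 15. The KO is zygotic, with coding exons 4 and 5 of *Zfp57* disrupted, a gene for a KRAB zinc finger protein that keeps imprints methylated after fertilization. Total RNA depleted of ribosomal RNA was sequenced from 3 WT and 2 KO samples as paired reads of 150 bp.

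Dnmt1 copies methylation onto the new strand after replication and is brought there by Uhrf1, which recognises hemimethylated DNA. Dnmt3a and Dnmt3b set new methylation with the help of Dnmt3l, which lacks catalytic activity of its own. Tet1, Tet2 and Tet3 oxidise 5-methylcytosine, Tdg excises the formyl and carboxyl forms so that base excision repair can restore cytosine, and Dppa3 (also called Stella or PGC7) restrains Uhrf1 and protects maternal methylation in the zygote. Blocking the Erk pathway is known to keep ES cells in a state of low global methylation. DNA methylation itself was not analysed here, so every value below is an RNA level or a distance in the genome.

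Levels are in FPKM, fragment numbers divided by transcript length and by library depth, which allows genes of different length to be compared. From the steps between low values of short genes, the libraries were inferred to hold 50600000 to 58900000 fragments, and 17504 to 18138 genes were above 0. Differences are KO minus WT on log2(FPKM + 0.1), with standard error (SE) and with p-values from limma adjusted over the 14612 tested genes. *Zfp57* was at 75.9, 72.3 and 70.6 FPKM in WT and at 19.0 and 21.6 in KO (log2 fold change -1.84, SE 0.06, limma's adjusted p = 0.00023), although the table does not separate the disrupted exons from the others. Defining ES cell markers were high in both genotypes. The summed level of 8 naive markers was 667 to 690 FPKM in WT and 759 to 829 in KO. The corresponding ranges were 7.01 to 9.26 and 2.99 to 4.09 for 5 formative and primed markers, 0.64 to 0.70 and 0.90 to 1.36 for 6 primitive endoderm markers, 0.50 to 0.92 and 2.45 to 2.78 for 5 trophoblast markers, 1.65 to 2.83 and 1.14 to 1.76 for 5 markers of the 2-cell-like state, and 0.32 to 0.35 and 0.15 to 0.33 for 6 fibroblast markers, 3 of which were at 0 throughout. Single genes carried 3 of these shifts, each named after its values were seen. *Eomes* accounted for most of the trophoblast sum in KO, at 0.51, 0.60 and 0.38 FPKM in WT and 2.13 and 2.40 in KO, while *Cdx2* and *Gata3* were not called and *Elf5* and *Hand1* were too low to test. Most of the difference in the formative and primed sum lay in *Lef1*, at 5.79, 7.91 and 8.21 FPKM in WT and 2.60 and 1.47 in KO. Most of the difference in the primitive endoderm sum lay in *Sox7*, at 0.09, 0.15 and 0.11 FPKM in WT and 0.90 and 0.48 in KO, the 1 called gene of the 3 tested there, while *Gata4* and *Pdgfra* were not called. By limma's test 5 of the 8 naive markers were higher (3 without the filter on low values), and of 5 formative and primed markers 1 was higher (*Fgf5*) and 2 were lower (*Lef1* and *Pou3f1*), where 18.8% of all tested genes were higher and 22.3% lower. The part of these shifts in the results below was not tested. In bulk RNA, fewer cells expressing a gene and less RNA per cell cannot be told apart.

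Of the 10 genes, 7 passed an adjusted p of 0.05. *Dnmt3a* and *Dppa3* fell strongly and *Tet3* moderately, whereas *Dnmt1*, *Uhrf1*, *Tet1* and *Tdg* rose by at most 1.19-fold. The background for these counts is high. Among all tested genes 41.1% passed the same threshold, 18.8% as higher and 22.3% as lower in KO, so the share of 7 in 10 is to be read against this background, and the median log2 fold change of the 10 genes was -0.07 against -0.01 for all tested genes. Both KO libraries lay outside the WT range for the same 7 genes, which compares with 63.4% of all tested genes. *Dppa3* and *Dnmt3a* stood out by size. Only 0.9% of tested genes had a larger absolute log2 fold change than *Dppa3*, and 2.3% a larger one than *Dnmt3a*.

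**Figure D1:**
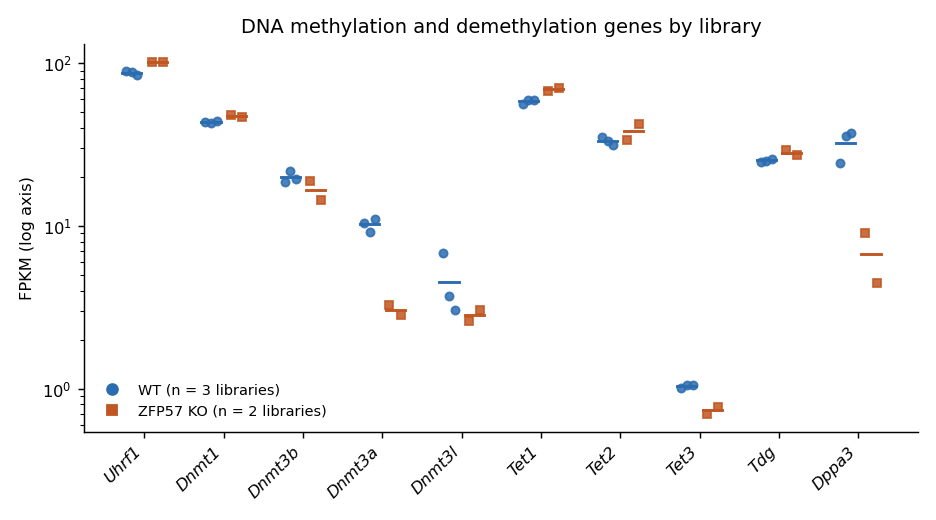
FPKM of the 10 genes on a log axis, with circles for the 3 WT libraries, squares for the 2 ZFP57 KO libraries and a bar for each genotype's mean. *Dnmt3a* (9.21 to 11.0 in WT, 2.84 and 3.25 in KO) and *Dppa3* (24.2 to 37.0 in WT, 4.43 and 9.04 in KO) separate most, while *Dnmt3b*, *Dnmt3l* and *Tet2* overlap between genotypes.

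The maintenance genes were among the most abundant of the set and both rose slightly. *Uhrf1* (chr17:56303337-56323486 on GRCm38) was at 90.1, 87.8 and 84.9 FPKM in WT and at 102 and 102 in KO. Both KO libraries exceeded every WT library, and the difference was 0.22 (SE 0.04, limma's adjusted p = 0.0064), or 1.16-fold. *Dnmt1* (chr9:20907206-20959888) was at 43.6, 42.6 and 44.2 FPKM in WT and at 48.1 and 46.8 in KO, again without overlap. This 1.09-fold difference of 0.13 (SE 0.04, limma's adjusted p = 0.035) was past the threshold as deposited but not once each library was rescaled to the same total (0.10, adjusted p = 0.065), and it missed the threshold when any 1 library was left out. Within each library, *Uhrf1* was present at 2.06, 2.06 and 1.92 times the level of *Dnmt1* in WT and at 2.12 and 2.17 times in KO. The ratio was thus higher in both KO libraries, by 0.09 on the log2 scale (exact permutation test, two-sided, p = 0.1, Benjamini-Hochberg adjusted over 4 ratios 0.2). A p of 0.1 is the smallest that 3 libraries against 2 allow.

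Of the de novo methyltransferases, *Dnmt3a* fell, while *Dnmt3b* and the cofactor *Dnmt3l* did not pass the test. *Dnmt3a* (chr12:3801559-3914443) was at 10.4, 9.21 and 11.0 FPKM in WT and at 3.25 and 2.84 in KO. The lowest WT library was well above the highest KO library, and the level was 3.28-fold higher in WT on the log2(FPKM + 0.1) scale (log2 fold change -1.71, SE 0.10, limma's adjusted p = 0.00033). The call held in every fit that left out a library, with differences from -1.81 to -1.62. *Dnmt3b* (chr2:153649411-153687730), the more abundant of the pair, was at 18.6, 21.9 and 19.4 FPKM in WT and at 19.0 and 14.5 in KO. The first KO library lay inside the WT range and the second below it, and the difference of -0.26 (SE 0.12) did not pass (limma's adjusted p = 0.14). Leaving out KO 1 moved this difference to -0.46 and leaving out KO 2 moved it to -0.07, so its size rests on which KO library is read.

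*Dnmt3a* made up 35.9, 29.6 and 36.1% of the summed FPKM of *Dnmt3a* and *Dnmt3b* in WT and 14.6 and 16.4% in KO. The sum itself was 29.0, 31.1 and 30.4 FPKM in WT and 22.2 and 17.3 in KO. All KO values were below all WT values for both quantities. The ratio of *Dnmt3a* to *Dnmt3b* was 0.56, 0.42 and 0.57 in WT and 0.17 and 0.20 in KO, a difference of -1.48 on the log2 scale (exact permutation test, two-sided, p = 0.1, adjusted 0.2).

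*Dnmt3l* (chr10:78042287-78063622) was at 6.81, 3.69 and 3.04 FPKM in WT and at 2.62 and 3.06 in KO. WT 1 stood well above the other libraries, the groups overlapped, and the difference of -0.57 (SE 0.32) did not pass (limma's adjusted p = 0.20). Without any 1 library it ranged from -0.80 to -0.23, and no such fit called it. Its ratio to *Dnmt3a*, the catalytic partner, was 0.65, 0.40 and 0.28 in WT and 0.81 and 1.08 in KO. This difference of 1.16 on the log2 scale (exact permutation test, two-sided, p = 0.2, adjusted 0.27) combines the lower *Dnmt3a* with a cofactor that was not called. *Aire*, which overlaps *Dnmt3l*, was at 0.06 to 0.78 FPKM, and reads shared between them cannot be separated in the table.

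The gene-level value of *Dnmt3a* adds up transcripts from separate starts, a long form and a short form known as Dnmt3a2 that lacks the N-terminal part and is the main form in ES cells. The table does not tell them apart. The 250 bases before each start are shown because they differ in CG content, the substrate of these enzymes, and are given 5′ to 3′ on the plus strand from RefSeq (GRCm38.p6) with CG dinucleotides in capitals. The window before a long-form start is at chr12:3806730-3806979 and that before the short-form start at chr12:3891494-3891743.
Dnmt3a, before the long-form start: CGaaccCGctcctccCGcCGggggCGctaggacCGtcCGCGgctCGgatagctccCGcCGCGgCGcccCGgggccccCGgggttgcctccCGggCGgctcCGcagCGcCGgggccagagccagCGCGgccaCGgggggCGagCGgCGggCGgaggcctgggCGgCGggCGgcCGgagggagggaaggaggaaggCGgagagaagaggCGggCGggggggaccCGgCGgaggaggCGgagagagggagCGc
Dnmt3a, before the short-form start: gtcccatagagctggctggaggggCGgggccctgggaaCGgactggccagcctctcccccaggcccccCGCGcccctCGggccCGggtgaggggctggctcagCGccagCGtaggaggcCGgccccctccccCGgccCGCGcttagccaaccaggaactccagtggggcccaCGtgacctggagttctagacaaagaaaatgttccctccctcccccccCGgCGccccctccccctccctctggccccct
The former holds 38 CG dinucleotides and the latter 15.

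RefSeq promoter windows, which run from 250 bases before to 50 bases after a start, matched 9 of the 10 genes with 16 windows, and *Dppa3* had none. Over all 32851 windows the median was 7 CG dinucleotides, with quartiles of 3 and 20. *Tet2* had 57, *Dnmt3b* 30, *Tdg* 26, *Tet3* 22 and *Tet1* 17, all but the last above the upper quartile. *Dnmt3a* had 46, 47 and 18 at its 3 starts, *Uhrf1* 12 and 33, and *Dnmt1* 2, 12 and 33. The windows of *Dnmt3l* held only 6, 4 and 3, the single gene of the 9 with no window above the median of all promoters.

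Among the oxidising enzymes, *Tet1* rose and *Tet3* fell. *Tet1* (chr10:62804570-62887469), the main Tet gene of these cells, was at 56.0, 59.7 and 59.6 FPKM in WT and at 67.9 and 70.8 in KO. The groups did not overlap, and the difference was 0.25 (SE 0.04, limma's adjusted p = 0.0069), or 1.19-fold. *Tet2* (chr3:133463677-133545136) was at 35.2, 33.1 and 31.3 FPKM in WT and at 33.9 and 42.4 in KO. Its first KO library lay within the WT range, and the difference of 0.19 (SE 0.10) did not pass (limma's adjusted p = 0.17). Without KO 1 the difference was 0.35, and without KO 2 it was 0.03.

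*Tet3* (chr6:83362373-83457208), which acts on the paternal genome of the zygote, was the lowest gene of the set. It was at 1.01, 1.05 and 1.06 FPKM in WT and at 0.70 and 0.77 in KO, without overlap and with an inferred 430 to 730 fragments per library. The level was 1.37-fold higher in WT (log2 fold change -0.45, SE 0.12, limma's adjusted p = 0.028), but the call was lost without any 1 of the 5 libraries, where the difference ranged from -0.51 to -0.39. The 3 genes together summed to 92.3, 93.9 and 92.0 FPKM in WT and to 102 and 114 in KO. *Tet3* supplied 1.09, 1.12 and 1.15% of this sum in WT and 0.683 and 0.676% in KO, so its share in the total Tet transcript pool was small in both genotypes. The ratio of *Tet2* to *Tet1* was 0.63, 0.55 and 0.53 in WT and 0.50 and 0.60 in KO, which overlap (-0.05 on the log2 scale, exact permutation test, two-sided, p = 0.8, adjusted 0.8).

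*Tdg* (chr10:82629814-82650799), which removes the oxidised bases, was at 24.8, 25.1 and 25.9 FPKM in WT and at 29.1 and 27.2 in KO. The 1.11-fold difference of 0.15 (SE 0.05, limma's adjusted p = 0.038) lay close to the threshold. It was no longer called after rescaling to equal totals (0.13, adjusted p = 0.066), without KO 1 (0.10, adjusted p = 0.15) or without any single WT library.

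*Dppa3* (chr6:122626424-122630271) showed the largest difference of the set. It was at 24.2, 35.6 and 37.0 FPKM in WT and at 9.04 and 4.43 in KO. The libraries varied within each genotype, with WT 1 low among WT and KO 2 below KO 1, yet the lowest WT value was well above the highest KO value. The level was 4.94-fold higher in WT (log2 fold change -2.30, SE 0.32, limma's adjusted p = 0.0027), and leaving out 1 library at a time gave differences from -2.81 to -1.80, each past the threshold. *Dppa3* and *Tet3* both lie on chromosome 6, where 679 genes were tested with a median difference of 0.17. Relative to that median their differences were -2.47 and -0.62. Processed pseudogenes of *Dppa3*, *Dnmt3a*, *Dnmt3l* and *Tdg* are annotated, so a part of their reads could have been assigned elsewhere.

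**Figure D2:**
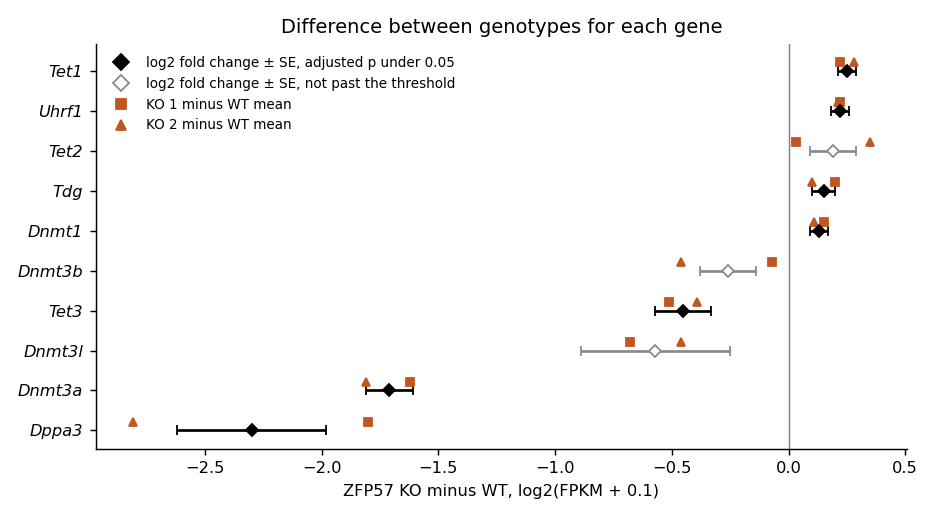
Difference between ZFP57 KO and WT in log2(FPKM + 0.1) for the 10 genes, with diamonds and bars for limma's estimate ± SE, filled where the adjusted p was under 0.05, and with each KO library minus the WT mean as a square (KO 1) or triangle (KO 2). *Dppa3* at -2.30 and *Dnmt3a* at -1.71 lie far from the rest, which fall between -0.57 and 0.25.

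Ordered by mean level, the WT cells ran *Uhrf1*, *Tet1*, *Dnmt1*, *Tet2*, *Dppa3*, *Tdg*, *Dnmt3b*, *Dnmt3a*, *Dnmt3l* and *Tet3*, from 87.6 ± 2.62 down to 1.04 FPKM (SD, n = 3). Neighbours in this order were separated in all libraries, apart from *Dppa3*, which overlapped both *Tet2* and *Tdg*. In KO the order began alike, from *Uhrf1* at 102 ± 0.438 FPKM (SD, n = 2), but *Dppa3* stood behind *Dnmt3b*. *Dnmt3a* and *Dnmt3l* could not be separated in KO, at means of 3.04 ± 0.29 and 2.84 FPKM (SD, n = 2), whereas *Dnmt3a* was above *Dnmt3l* in all WT libraries.

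ZFP57 binding was available as a list of 1423 peaks on mm10, called in at least 2 WT replicates and carrying no score. None of the 10 genes had a listed peak within 20 kb. The nearest was at chr9:20879484-20879767, 27.4 kb from *Dnmt1* and inside *Angptl6*, and it was absent from the shorter list of 743 peaks named for hybrid lines. *Tdg* followed at 58.1 kb. *Dnmt3a* was 873.6 kb and *Dppa3* 1051.9 kb from a peak, and the farthest was *Tet2* at 1915.6 kb. Signal under the authors' threshold for a peak was not analysed here.

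The hexanucleotide TGCCGC, the core of the motif that ZFP57 binds when its CG is methylated, was searched on both strands of the promoter windows. It occurred in 3 of the 16 windows of these genes, against 11.6% of all windows in the table, and 2 of the 3 were overlapping windows of *Dnmt3a*. The matches are shown for the sequence around them, with the hexanucleotide or its reverse complement in capitals, beside the copy in the peak nearest to *Dnmt1*. The stretches that hold the *Dnmt3a* matches are at chr12:3806990-3807019 and chr12:3807064-3807093, printed on the plus strand, where the reverse complement is read, so that TGCCGC itself lies on the minus strand. The matches begin 158 and 84 bases before the start at position 3807160. The stretch in the peak is at chr9:20879626-20879655, likewise printed on the plus strand with the reverse complement, and the *Tet3* window is read on the minus strand at chr6:83441679-83441928.
Dnmt3a, first match: gagggagggagcGCGGCAggcagcgggcgg
Dnmt3a, second match: ggacgcggcgccGCGGCAgcagggcgagcc
Peak nearest to Dnmt1: ccagtgaggtttGCGGCAattccacaaaat
Tet3, before the start: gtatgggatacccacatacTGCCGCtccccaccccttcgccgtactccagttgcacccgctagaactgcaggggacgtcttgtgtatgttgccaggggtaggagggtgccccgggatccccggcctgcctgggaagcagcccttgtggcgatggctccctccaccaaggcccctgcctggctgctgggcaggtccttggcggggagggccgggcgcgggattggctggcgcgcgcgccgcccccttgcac
The *Tet3* copy lies 231 bases before the start at position 83441678, which is inside the span of the gene. RefSeq gives 2 curated starts for *Tet3*, but the windows include only this start. No listed peak covers the windows of *Dnmt3a* or *Tet3*, so these matches describe the letters there and no binding.

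The wider pathway was read from 6 lists of partners, cofactors, suppliers and targets of these enzymes, written with earlier results of the data known. Together they held 72 tested genes, of which 43 were called, 15 higher and 28 lower, with a median log2 fold change of -0.12. The shares over all tested genes, against which this and each list below are to be read, were 41.1% called, 18.8% higher and 22.3% lower, and the median was -0.01. In 5 lists the called genes went both ways, whereas the 9 called germline genes were all lower.

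**Figure D3:**
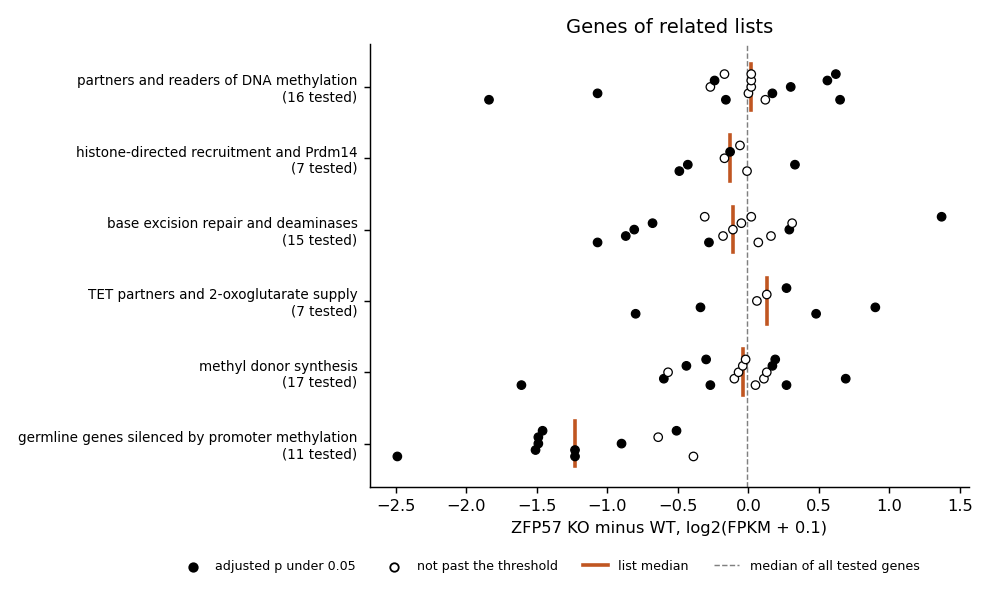
Difference between ZFP57 KO and WT in log2(FPKM + 0.1) for each tested gene of the 6 lists, filled where limma's adjusted p was under 0.05, with a bar for the list median and a dashed line for the median of all tested genes (-0.01). The germline genes lie to the left with a median of -1.23, while the other lists have medians from -0.13 to 0.13.

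Among 16 tested partners and readers of DNA methylation, 9 were called, 5 higher and 4 lower (median 0.02), beside 41.1% of all tested genes. *Zfp57*, the gene disrupted in KO, was the lowest, and it is counted both here and in the lists together. *Mbd2*, a reader of methylated CG, was the highest, at 3.12, 3.04 and 2.94 FPKM in WT and 4.11 and 5.64 in KO (log2 fold change 0.65, SE 0.13, limma's adjusted p = 0.011). It was 0.43 without KO 2 and 0.87 without KO 1, and it was not called without the filter on low values (adjusted p = 0.076). *Uhrf2*, the paralog of *Uhrf1*, was named after its values were seen. It was at 11.1, 13.3 and 11.6 FPKM in WT and 6.63 and 4.77 in KO, with a log2 fold change of -1.07 (SE 0.15, limma's adjusted p = 0.0026), whereas *Uhrf1* was higher in KO. Of 7 regulators that act through histones, together with *Prdm14*, 4 were called, 1 higher and 3 lower (median -0.13), beside the same 41.1%. *Ehmt2*, which methylates H3K9, rose from 12.3, 12.2 and 12.7 FPKM to 15.8 and 15.6 (0.33, limma's adjusted p = 0.0020). *Kdm1b*, an H3K4 demethylase needed for maternal imprints in the oocyte, was at 3.69, 3.80 and 4.03 FPKM in WT and 2.84 and 2.58 in KO (-0.49, limma's adjusted p = 0.0053).

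Base excision repair genes and deaminases numbered 15 tested genes, of which 7 were called, 2 higher and 5 lower (median -0.11), near the 41.1% of all tested genes. *Gadd45a*, a stress-induced factor linked to active demethylation, rose from 2.65, 3.65 and 3.32 FPKM to 7.14 and 9.84 (1.37, SE 0.18, limma's adjusted p = 0.0022). Its paralogs *Gadd45b* and *Gadd45g*, named after their values were seen, were called in the other direction (-0.68 and -0.81, limma's adjusted p = 0.0011 and 0.019). *Neil3*, a DNA glycosylase, was at 2.79, 2.38 and 2.56 FPKM in WT and at 1.10 and 1.24 in KO (-1.07, SE 0.11, limma's adjusted p = 0.0011). The groups were apart for *Gadd45a* and *Neil3*. Of 7 tested partners of the Tet enzymes and suppliers of 2-oxoglutarate, 5 were called, 3 higher and 2 lower (median 0.13), again beside 41.1%. *Hmces*, which binds abasic sites, rose from 13.0, 15.5 and 13.0 FPKM to 24.2 and 27.3 (0.90, SE 0.09, limma's adjusted p = 0.0012). *Gadd45a* and *Hmces* both lie on chromosome 6, where the median difference was 0.17. With each chromosome's median subtracted, their differences were 1.20 and 0.72, and both were still called.

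Methyl donor synthesis had 17 tested genes, of which 9 were called, 4 higher and 5 lower (median -0.04), beside 41.1% of all tested genes. *Gldc*, the glycine decarboxylase that feeds the folate pool, was at 32.8, 33.7 and 37.2 FPKM in WT and at 14.2 and 8.97 in KO (-1.61, SE 0.18, limma's adjusted p = 0.0014). *Lig3* of the repair list and *Mat2b* and *Shmt1* of this list, named because of their position, were lower and lie on chromosome 11. On that chromosome 1224 genes were tested, with a median difference of -0.47. With each chromosome's median subtracted, the lower calls numbered 5 for repair and 4 for methyl donor synthesis, against 5 for each before. Over all 14612 tested genes, the lower calls numbered 2660 after this subtraction and 3253 before it.

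Germline genes are a known class that promoter methylation keeps silent in somatic cells. Of 14 such genes 11 were tested, and 9 were lower in KO, with a median of -1.23. The other 2, *Asz1* at -0.39 and *Taf7l* at -0.64, were not called (limma's adjusted p = 0.32 and 0.17). For comparison, 22.3% of all tested genes were lower. *Dazl*, an RNA-binding protein of germ cells, was the lowest by rule, at 8.34, 6.41 and 8.84 FPKM in WT and at 2.75 and 2.59 in KO (-1.51, SE 0.14, limma's adjusted p = 0.00077). *Ddx4*, a germ cell helicase, changed least among the 9, at 3.01, 2.77 and 3.21 FPKM in WT and 2.01 and 2.13 in KO (-0.51, SE 0.09, limma's adjusted p = 0.0075).

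The most abundant of them was *Hormad1*, a meiotic chromosome protein, at 21.7, 23.2 and 25.1 FPKM in WT and 11.0 and 8.87 in KO (-1.23, SE 0.10, limma's adjusted p = 0.00062). *Brdt*, a testis bromodomain protein, was at 1.15, 0.71 and 1.11 FPKM in WT and at 0.09 in both KO libraries (-2.49, SE 0.23, limma's adjusted p = 0.00079). Both genes were picked after their values were seen. *Mael*, *Stk31*, *Sycp1*, *Sycp3* and *Sohlh2* made up the other calls, with log2 fold changes from -1.49 to -0.90. All KO libraries were below all WT libraries for the 9 called genes, which had already been picked by their calls. Of all tested genes, 63.4% had both KO libraries outside the WT range, in either direction. The 3 genes left untested (*Slc25a31*, *Tdrd1* and *Tex101*) were at 0.16 FPKM or less in every library. The count stayed between 7 and 10 over the alternative fits and thresholds.

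**Figure D4:**
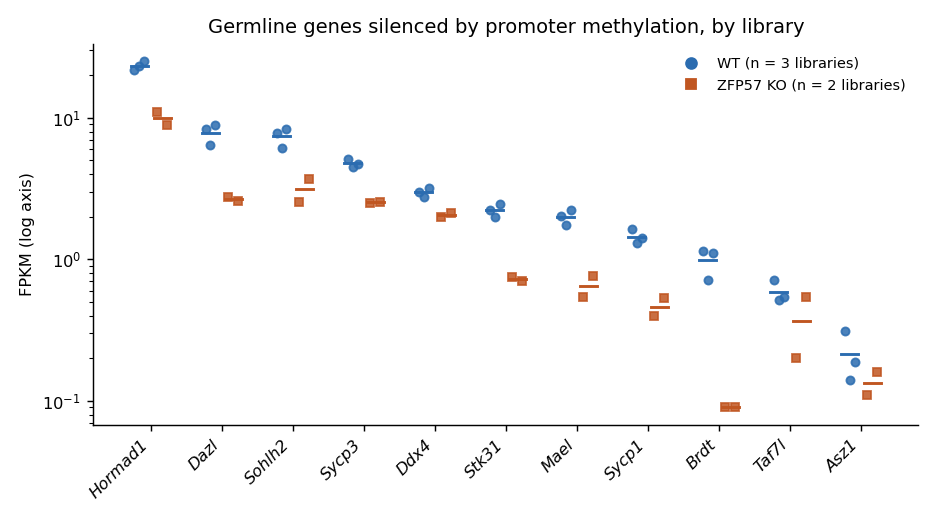
FPKM of the 11 tested germline genes on a log axis, with circles for the 3 WT libraries, squares for the 2 ZFP57 KO libraries and a bar for each genotype's mean. *Hormad1* is highest in both genotypes, *Brdt* drops to 0.09 in both KO libraries, and only *Taf7l* and *Asz1* overlap between genotypes.

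The genes whose profile over the 5 libraries lay nearest to the 3 largest differences of the set were sought among 10663 genes, by Euclidean distance between WT-centred log2(FPKM + 0.1) values. *Dppa3* was nearest to *Dmrt1* (distance 0.27), a transcription factor of the gonad, which was at 16.6, 21.4 and 22.8 FPKM in WT and at 5.65 and 3.28 in KO. Like *Dppa3*, *Dmrt1* was lowest among WT in WT 1 and lower in KO 2 than in KO 1. *Mir466f-3* (0.41) and *Ccno* (0.43) followed. *Dnmt3a* was nearest to *Ttll6* (0.11), a tubulin glutamylase on chromosome 11, then to *Pcbp3* (0.11) and *Got1l1* (0.13). For *Dnmt3l* the nearest were *Mir196a-1* (0.36), *Mir8093* (0.36) and *Mir6913* (0.41), whose WT 1 value was likewise the highest. The genes were picked by these same values, so the patterns they share over the libraries follow from the choice. With only 5 libraries in 2 genotypes, these distances are descriptions.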

How the data were processed

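RNA-seq of 3 WT and 2 ZFP57 KO ES cell samples was used. Samples were grouped by the genotype in the labels, which number them without stating that each is a separate line, so that p-values measure the spread between these samples. The authors deposited FPKM values for 24409 genes, rounded to 2 decimals, and peak positions without a score. The submitters' processing notes name FastQC 0.11.5, Trim Galore 0.2.7, BWA 0.6.2, Picard, MACS2 2.1.0 and STAR 2.5.2. The tool that counted fragments and the gene annotation are not given in the sources used here. The table holds no counts. Depth was inferred from genes of at most 300 bp, of whose low values 91.5 to 94.7% were whole multiples of a step, within 0.1 of it (20% for unrelated values). A fragment on 1 kb was worth 0.0170 to 0.0197 FPKM.

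For the 14612 genes averaging at least 0.1 FPKM, log2(FPKM + 0.1) was fitted in limma 3.58.1 (R 4.3.3, lmFit and eBayes with trend, genotype as the only term), and p-values were adjusted by Benjamini-Hochberg and called under 0.05. The added 0.1 understates fold changes of low genes. The test was checked on simulated data. Ratios were compared by exact permutation of the libraries. Positions and sequences are from RefSeq on GRCm38.p6, the build of the files (mm10). Tables and plots used Python 3.11.15, numpy 2.4.6, pandas 2.3.3 and matplotlib 3.10.9.

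Named are the 10 genes, *Zfp57*, the called gene with the highest and that with the lowest log2 fold change of each pathway list (mean of at least 1 FPKM), and the 3 nearest genes to each of the 3 largest differences. Genes outside this rule are marked as such in the text or have their place in a list given by its counts. Some genes that the rule names are not reported here. Members and lists were chosen with earlier results of these data known. Alternatives covered pseudocounts, filters, scaling, the variance model, chromosome medians, a replicate block, single libraries, thresholds and windows. ChIP-seq of KAP1 and H3K9me3 and the hybrid lines were not analysed here. Protein sequences were not used.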

Additional observations from a re-analysis of the deposited data

How the results depend on the processing

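*Dnmt3a* and *Dppa3* were called under each of the 17 alternatives, and *Tet1* under all but the requirement of a log2 fold change of at least 1. No value of the 10 genes changed sign. The count of 7 was 4 to 6 when 1 library was left out. It was 4 (*Dnmt3a*, *Uhrf1*, *Tet1* and *Dppa3*) without any single WT library, 6 without KO 1 and 5 without KO 2. Where KO 1 or KO 2 was left out, the single KO library was assumed to vary like the others. Over all genes 6002 calls became 4146 to 4831. An adjusted p under 0.01 left 3291 of all genes and 4 of the 10. An absolute log2 fold change of at least 1 left 1172 genes, 2 of the 10 (*Dnmt3a* and *Dppa3*) and 12 genes of the pathway lists. The 5 naive markers called became 3 without the filter on low values, with the replicate block or at an adjusted p under 0.01, and 0 at an absolute log2 fold change of at least 1. A window of 50 kb in place of 20 kb gave 1 gene near a peak, *Dnmt1*. *Dnmt1* and *Tdg* were also lost without the variance trend and after library medians were subtracted. The cause was not tested.

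With the replicate number as a block, 3012 of all genes were called, 3 of the 10 (*Dnmt3a*, *Tet1* and *Dppa3*) and 28 of the pathway lists, and *Uhrf1* had an adjusted p of 0.063. Of the list genes named by rule, *Mbd2*, *Kdm1b* and *Ddx4* lost their calls with it (adjusted p = 0.051, 0.055 and 0.067). The block terms leave fewer degrees of freedom. WT 3 has no KO partner and drops out of the differences, which equal those without WT 3 (*Dnmt3a* -1.66 and *Dppa3* -2.19). Deviations from the genotype means correlated at -0.068 between WT 1 and KO 1 and at -0.036 between WT 2 and KO 2, so the numbers were not taken as pairs.

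The fewest inferred fragments were 430 for *Tet3*, and 200 and 370 for *Dppa3* and *Dnmt3l* in KO. How much depth adds to the spread of these genes was not tested. Single-gene permutation tests cannot fall below 0.1.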
